A study of Macaca radiata with 6 samples.

Results

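Cytochrome P450s are heme enzymes that insert an oxygen atom into steroids, fatty acids, vitamins and foreign chemicals. The members described here were all probe sets whose single symbol in the platform annotation had the form of a cytochrome P450 gene, leaving out CYP3A4, CYP17A1 and CYP19A1. The rule used symbols alone but was set with earlier results of these data known. They came to 49 of the 52865 probe sets on the array and to 32 of its 14133 genes named by 1 symbol. Each was read on 6 Affymetrix Rhesus arrays of whole corpus luteum, the ovarian gland that makes progesterone after ovulation, from female bonnet monkeys (Macaca radiata) in the luteal phase. The PGF2alpha group (3 arrays, replicates 1 to 3) had received 3 intramuscular injections of prostaglandin F2alpha, which makes the gland regress, at 59 µg/kg body weight on day 10. The vehicle group (3 arrays, replicates 4 to 6) had received phosphate-buffered saline on the same day, and tissue of both groups was taken 24 h later. The labels give 3 monkeys per group without tying an array to an animal, so p-values measure only the spread between these 6 samples. The probes were designed for another macaque.

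Microsomal P450s sit in the endoplasmic reticulum and take electrons from P450 reductase, sometimes helped by cytochrome b5, whereas mitochondrial P450s such as CYP11B1 take them from ferredoxin. Each P450 needs a heme group at its active site, and a given enzyme acts on few or many substrates. In the ovary the best known members turn cholesterol into progesterone and estrogens, while many of the others are studied mostly in liver, adrenal cortex and kidney. CYP11A1, the enzyme that opens steroid synthesis, and CYP27A1, a cholesterol hydroxylase, are not analysed here because no probe set carried either symbol.

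Values are linear MAS5 signal intensities, which have no unit and set no absolute level between probe sets. Array medians lay between 115 and 134. A probe set was tested when at least 3 arrays gave it a signal no lower than their own median, and its fold change is the difference of log2(signal + 40), PGF2alpha minus vehicle, which understates changes of dim probe sets. An adjusted p, from limma, was corrected by Benjamini-Hochberg across the 26944 probe sets tested and passed at 0.05. The scanner files placed PGF2alpha replicates 1 and 3 with vehicle replicates 5 and 6 in hybridisation run 1, and PGF2alpha replicate 2 with vehicle replicate 4 in run 2. STAR, which carries cholesterol into mitochondria, and the luteal genes HSD3B2, INHA and NR5A1 lay above the array median on all 6 arrays, but HSD17B1 did so on the vehicle arrays alone. With 1 probe set a gene, signals summed to 56534 to 96757 over the 5 named luteal markers of 8 in the PGF2alpha group and to 103710 to 135869 in the vehicle group. STAR led these sums. Of those 5 markers, all tested, 1 fell, STAR. All 5 had log2 fold changes below 0, with a median of -0.672, and 4 were lower at an unadjusted limma p under 0.05. Of those 4, HSD17B1 passed the filter only with its vehicle arrays. Summed signals of 11 named macrophage markers were 21622 to 25775 in the PGF2alpha group and 6944 to 10892 in the vehicle group, and 6 of the 11 rose. Of those 6, MARCO passed the filter only with its PGF2alpha arrays. Of 8 named neutrophil markers 4 were tested, S100A8, S100A9, MMP9 and LCN2, and all 4 rose. Signals of these 4 alone summed to 12129 to 30554 in the PGF2alpha group and 3324 to 6648 in the vehicle group. All but LCN2 passed the filter only with their PGF2alpha arrays, and without the filter MPO and ELANE had log2 fold changes of -0.28 and -0.61. Of 6 named markers of T, NK and B lymphocytes, only GNLY and GZMA were tested. Signals of these 2 summed to 17495 to 32044 in the PGF2alpha group and 4589 to 6518 in the vehicle group. GNLY led the sum and rose by 3.01 (adjusted p = 0.00186, SE 0.264) on the log2 scale. GZMA did not pass, at -0.85 (adjusted p = 0.0584), with all PGF2alpha arrays below all vehicle arrays. Fibroblast markers, 2 of 6 of which rose, summed to 70739 to 87791 in the PGF2alpha group and 53172 to 73680 in the vehicle group. Of those 2, FAP passed the filter only with its PGF2alpha arrays. Endothelial markers, 1 of 8 of which rose (CLDN5), summed to 23061 to 33478 in the PGF2alpha group and 23684 to 27624 in the vehicle group. The part of these shifts in the P450 results was not tested, and in whole tissue fewer cells of a type and less RNA per cell cannot be told apart.

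After PGF2alpha, CYP11B1 and CYP3A5 fell and CYP1B1 rose on most of their probe sets, and no other of the 32 member genes passed the test. In all, 28 member probe sets of 18 genes were tested, of which 4 fell and 2 rose, where 5.01% of all tested probe sets were called (3.02% higher and 1.99% lower). The 6 called probe sets are 21.4% of the members tested but represent only 3 genes, so they are not 6 separate results. With 1 probe set a gene, 2 of 18 genes fell and none rose by limma, at an unadjusted p under 0.05 for 3 lower and 2 higher genes, where 6.07% of 9980 genes were called (3.76% higher and 2.31% lower).

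The tested members leaned to lower signals. Fold changes were below 0 for 20 of the 28 probe sets and above 0 for 8, against 53.1% below 0 over the whole table, and their median log2 fold change was -0.229, against -0.028 over all tested probe sets. Groups did not overlap on 11 of the 28 (39.3%), 7 lower and 4 higher in the PGF2alpha group, against 26.8% over the whole table (13.7% lower and 13% higher). Most of the 11 are repeated probe sets of CYP11B1, CYP3A5 and CYP1B1, so they are not 11 separate results. With 1 probe set a gene, 14 of 18 genes were below 0, with a median of -0.268 against -0.018 over all genes. The 22 probe sets that did not pass lay between -0.78 and 0.881. Of the 8 genes with several tested probe sets, 7 had all of them on one side of 0, CYP2A23 being the exception. The within-group SD of members, with a median of 0.298 on the log2 scale, lay above the 0.251 over all tested probe sets.

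**Figure D1:**
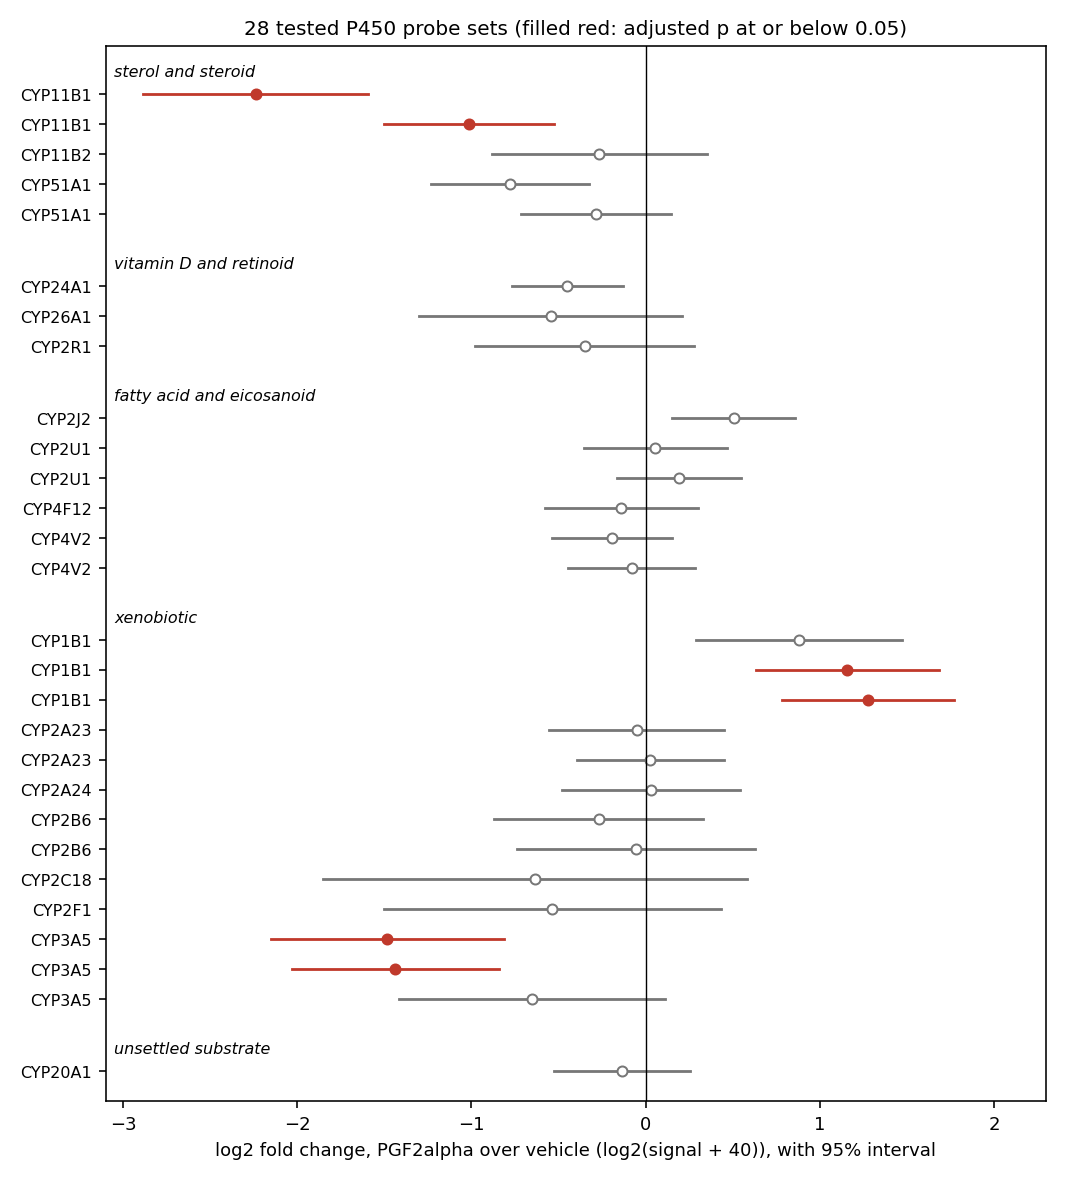
Log2 fold changes of signal + 40 (PGF2alpha minus vehicle, n = 3 arrays each) of the 28 tested P450 probe sets, drawn as points with 95% intervals and grouped by role, in filled red where adjusted p was at or below 0.05. A CYP11B1 probe set lies farthest below 0, followed by CYP3A5, and CYP1B1 farthest above it.

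CYP11B1, the mitochondrial enzyme that completes cortisol synthesis in the adrenal cortex, had the largest fold change among the tested members. Its probe set of higher mean read 198, 200.4 and 240.0 in the PGF2alpha group, against 766, 1873 and 1052 in the vehicle group. All 3 PGF2alpha arrays lay below all 3 vehicle arrays, and the vehicle arrays varied more. Means were 213 ± 23.7 in the PGF2alpha group and 1230.1 ± 575 in the vehicle group (SD, n = 3 each), and the log2 fold change was -2.24 (SE 0.286, 95% interval -2.88 to -1.59, adjusted p = 0.00648). The difference was -2.49 within run 1 and -1.74 within run 2. The call held with each array left out in turn, with adjusted p between 0.00587 and 0.0373, and under each other setting that gave a test.

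The second CYP11B1 probe set read 106, 120.0 and 163 in the PGF2alpha group, against 299.9, 321 and 278 in the vehicle group. These groups too did not overlap, with vehicle arrays within a narrow range. Its log2 fold change was -1.01 (adjusted p = 0.0328, SE 0.216), but the call ended when any array other than PGF2alpha replicate 3 was left out, at adjusted p = 0.1 (PGF2alpha replicate 1), 0.108 (PGF2alpha replicate 2), 0.0983 (vehicle replicate 4), 0.0932 (vehicle replicate 5) and 0.101 (vehicle replicate 6). Without the filter on dim probe sets it did not pass (adjusted p = 0.0807).

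CYP11B2, the close relative that makes aldosterone, did not pass the test. Its tested probe set read 124, 153 and 253 in the PGF2alpha group, against 217, 259 and 171 in the vehicle group. The groups overlapped, with PGF2alpha replicate 3 and vehicle replicate 5 nearly level, and the log2 fold change was -0.27 (adjusted p = 0.634, SE 0.273). The second CYP11B2 probe set was too dim to test, at 148, 78.7 and 105 in the PGF2alpha group, against 118, 142 and 54.4 in the vehicle group. To set the relatives side by side, the log2 ratio of CYP11B1 over CYP11B2 was taken in each array, a comparison chosen after the values were seen. It was 0.53, 0.31 and -0.07 in the PGF2alpha group, against 1.65, 2.68 and 2.37 in the vehicle group, with means of 0.26 ± 0.303 in the PGF2alpha group and 2.23 ± 0.529 in the vehicle group (SD, n = 3 each). The difference of -1.97 had an exact two-sided permutation p of 0.1, the smallest that 3 against 3 arrays allow, and 0.1 after adjustment over the 2 ratios computed. The 2 genes are near-identical copies in primates, so probes could read both. MC2R, the corticotropin receptor that marks adrenal cortex, was too dim to test, at 76.6, 50.3 and 6.02 in the PGF2alpha group, against 15.8, 9.53 and 78.7 in the vehicle group.

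CYP3A5, a broad enzyme of drug and steroid oxidation, fell on 2 of its 3 tested probe sets. The one of highest mean read 9366, 5478 and 8454 in the PGF2alpha group, against 25043, 28875 and 13222 in the vehicle group. All PGF2alpha arrays lay below all vehicle arrays, vehicle replicate 6 being the closest. Means were 7766 ± 2033 in the PGF2alpha group and 22379.9 ± 8159.6 in the vehicle group (SD, n = 3 each), and the log2 fold change was -1.48 (SE 0.297, 95% interval -2.15 to -0.81, adjusted p = 0.0271). Its ID marks it as able to hybridise with other transcripts. The call ended without PGF2alpha replicate 1 or 2 (adjusted p = 0.059 and 0.102) and without vehicle replicate 4 or 5 (0.0847 and 0.0756), and also with eBayes without a trend (adjusted p = 0.0603).

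A second CYP3A5 probe set, with an ID that carries no such mark, read 8557, 5941 and 6729 in the PGF2alpha group, against 19500.1, 27851 and 12651 in the vehicle group. The groups again did not overlap, and the log2 fold change was -1.44 (adjusted p = 0.0202, SE 0.263), with differences of -1.30 within run 1 and -1.71 within run 2. It did not pass without PGF2alpha replicate 2 (adjusted p = 0.0893) or without vehicle replicate 4 (0.0594). The third CYP3A5 probe set read 245, 130.0 and 162 in the PGF2alpha group, against 348, 442 and 164 in the vehicle group. There vehicle replicate 6 lay among the PGF2alpha arrays, and the log2 fold change was -0.65 (adjusted p = 0.312, SE 0.338). The summed luteal markers were lower on every PGF2alpha array too, and their part in the CYP3A5 and CYP11B1 results was not tested.

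CYP3A5 shares much sequence with CYP3A4, and 1 further probe set carried both symbols. That joint probe set read 12316, 7571 and 11408 in the PGF2alpha group, against 32319.5, 38912 and 17762 in the vehicle group, with a log2 fold change of -1.46 (adjusted p = 0.0257, SE 0.287). The log2 ratio of CYP3A5 over CYP3A4, also chosen after the values were seen, was 4.62, 3.88 and 2.49 in the PGF2alpha group, against 0.54, 0.11 and 1.61 in the vehicle group. The CYP3A4 probe set in this ratio read 342, 336 and 1475 in the PGF2alpha group, against 17255, 26814 and 4317 in the vehicle group. Its log2 fold change was -4.39 (adjusted p = 0.0123, SE 0.694), so both probe sets were lower and that of CYP3A4 by more. Each of them can hybridise with other transcripts, so the ratio may not separate the genes. The groups did not overlap in the ratio, with a difference of 2.91 (exact two-sided permutation p = 0.1, the smallest allowed).

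CYP1B1, which oxidises estradiol to catechol estrogens and activates polycyclic hydrocarbons, rose on 2 of its 3 probe sets, the only member with a called increase. Its first probe set read 1495, 1337 and 1309 in the PGF2alpha group, against 624, 687 and 375 in the vehicle group. The PGF2alpha arrays were close to one another and all lay above the vehicle arrays. Means were 1381 ± 100.1 in the PGF2alpha group and 562 ± 165 in the vehicle group (SD, n = 3 each), and the log2 fold change was 1.28 (SE 0.218, 95% interval 0.79 to 1.77, adjusted p = 0.0159). It did not pass without PGF2alpha replicate 1 or 2 (adjusted p = 0.0622 and 0.0645).

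The second CYP1B1 probe set read 1302, 2144 and 2024 in the PGF2alpha group, against 791, 972 and 608 in the vehicle group. Here too the groups did not overlap, and the log2 fold change was 1.16 (adjusted p = 0.0275, SE 0.233). Its call ended without PGF2alpha replicate 2 (adjusted p = 0.108), vehicle replicate 4 (0.0735) or vehicle replicate 6 (0.1). The third, which stands for the gene by its highest mean, read 1498, 3103 and 2023 in the PGF2alpha group, against 1406, 1109 and 922 in the vehicle group. It had the same direction without overlap, with PGF2alpha replicate 2 far above the others and PGF2alpha replicate 1 close to vehicle replicate 4, and its log2 fold change of 0.88 (adjusted p = 0.0919, SE 0.262) did not pass. With the hybridisation run as a block it passed (adjusted p = 0.0327). CYP1B1 therefore counts among the probe sets but not the genes called. The summed macrophage, neutrophil and lymphocyte markers were also higher on every PGF2alpha array. In the neutrophil sum, all but LCN2 passed the filter only with their PGF2alpha arrays, which favours a higher sum. GNLY led the lymphocyte sum, while GZMA was lower. Fibroblast and endothelial sums overlapped between the groups, though some of their markers rose. The part of all these markers in the CYP1B1 result was not tested.

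**Figure D2:**
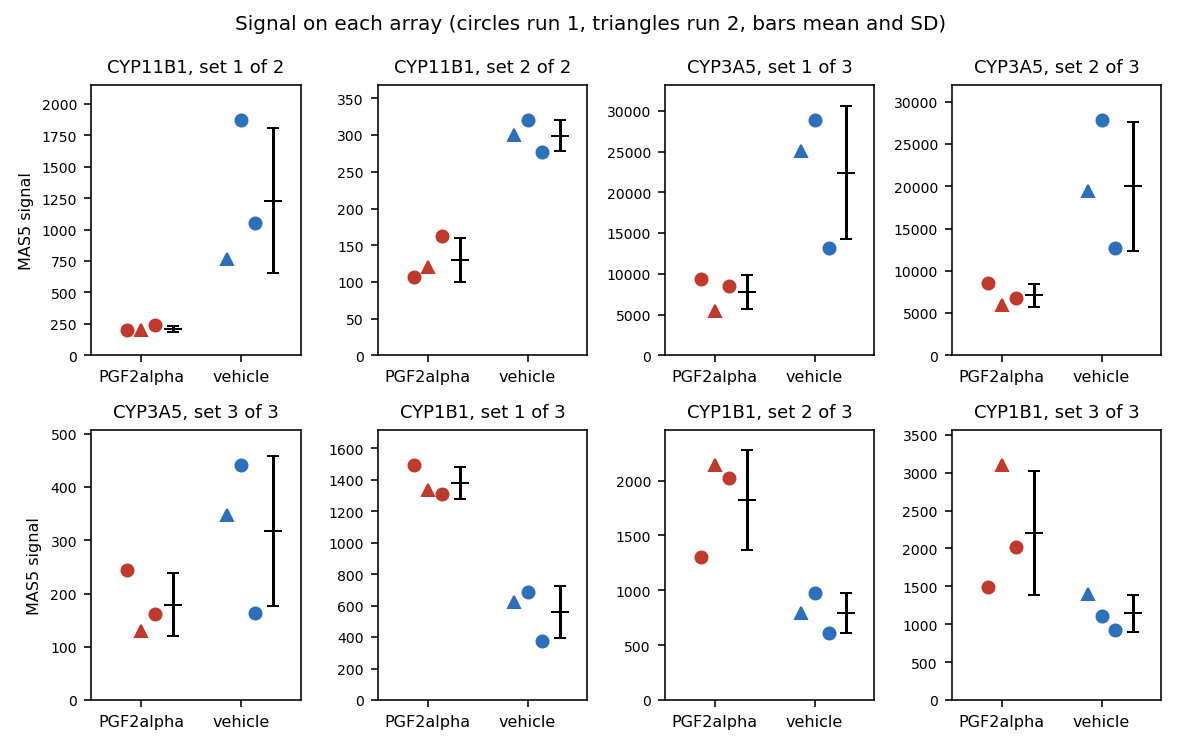
MAS5 signal (linear axis from 0) in each of the 6 arrays for the tested probe sets of CYP11B1, CYP3A5 and CYP1B1, numbered within a gene by size of change, with PGF2alpha left of vehicle; circles are run 1, triangles run 2, and bars the mean and SD. All PGF2alpha points lie below the vehicle points for both CYP11B1 probe sets and 2 of 3 CYP3A5 probe sets, and above them for all 3 CYP1B1 probe sets.

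**Figure D3:**
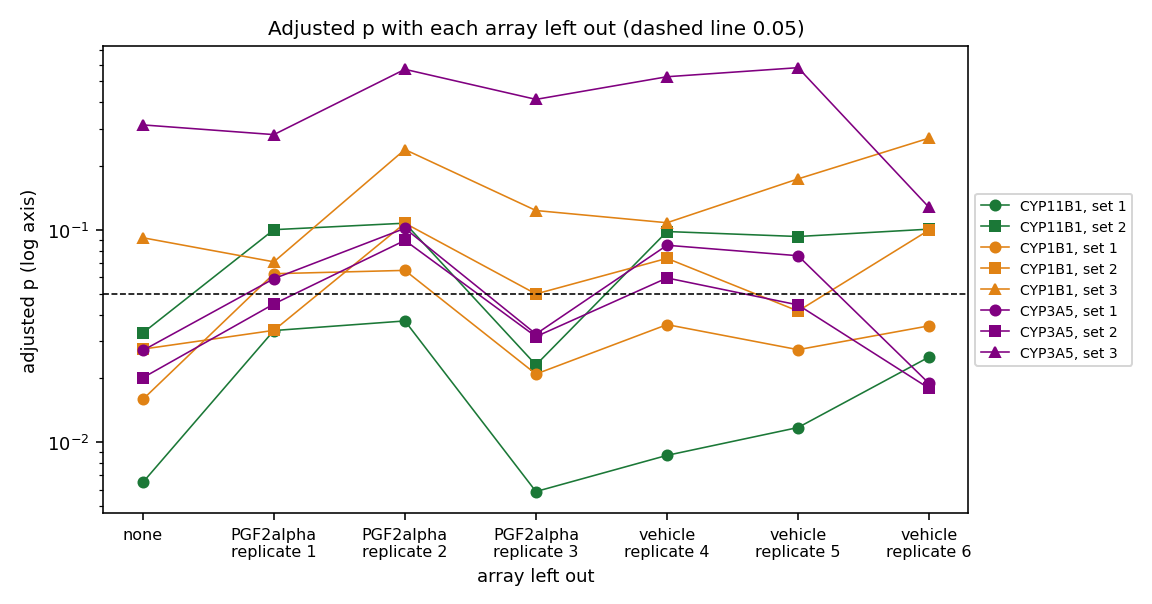
Adjusted p (log axis) of the 8 tested probe sets of CYP11B1, CYP1B1 and CYP3A5 with no array left out and with each array left out in turn; probe sets are numbered within a gene by size of change, the lines join values of one probe set and the dashed line is 0.05. Of these 8, the first CYP11B1 probe set alone stays below the line in all 6 cases.

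Of the 6 member genes of sterol and steroid metabolism, 3 were tested and CYP11B1 alone passed. CYP51A1, the demethylase of lanosterol in cholesterol synthesis, did not pass on either probe set. One read 1008, 1124 and 831 in the PGF2alpha group, against 1518, 2252 and 1466 in the vehicle group, without overlap and lower in the PGF2alpha group, with a log2 fold change of -0.78 (adjusted p = 0.0588, SE 0.201). The other, of higher mean, read 1233, 1345 and 1046 in the PGF2alpha group, against 1699, 1654 and 1132 in the vehicle group, with vehicle replicate 6 among the PGF2alpha arrays and a log2 fold change of -0.28 (adjusted p = 0.444, SE 0.192).

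The remaining sterol and steroid members were too dim to test. CYP21A2, the hydroxylase that precedes CYP11B1 in cortisol synthesis, read 115, 113 and 123 in the PGF2alpha group, against 55.6, 59.1 and 151 in the vehicle group. Vehicle replicate 6 was the highest of the 6 and the other vehicle arrays were the lowest, so the groups overlapped. CYP7B1, a hydroxylase of oxysterols, read 9.78, 43.2 and 59.4 in the PGF2alpha group, against 6.88, 5.63 and 20.1 in the vehicle group, again with overlap. CYP46A1, the cholesterol hydroxylase of neurons, lay below the array median on every array.

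Among the 5 genes of vitamin D and retinoid metabolism, 3 were tested and did not pass, with 1 lower at an unadjusted p under 0.05. That gene was CYP24A1, which inactivates vitamin D hormone. It read 2624, 2422 and 2188 in the PGF2alpha group, against 2984, 3437 and 3492 in the vehicle group. Every PGF2alpha array lay below every vehicle array, and the log2 fold change was -0.45 (adjusted p = 0.106, SE 0.141). CYP27B1, which makes the hormone, was too dim to test at 16.0, 17.7 and 38.3 in the PGF2alpha group, against 78.1, 86.7 and 64.4 in the vehicle group. Its groups did not overlap, lower in the PGF2alpha group, and without the filter the log2 fold change was -0.88 (adjusted p = 0.175). CYP2R1, which acts before it, had a log2 value of -0.35 (adjusted p = 0.526).

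On the retinoid side, CYP26A1 and CYP26B1 clear retinoic acid. The tested CYP26A1 probe set stood at -0.54 on the log2 scale (adjusted p = 0.397). CYP26B1 was too dim to test, at 24.2, 107 and 18.9 in the PGF2alpha group, against 35.0, 74.6 and 93.1 in the vehicle group, with PGF2alpha replicate 2 the highest of the 6 and the groups overlapping.

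Of the 8 genes of fatty acid and eicosanoid metabolism, 4 were tested and did not pass, with 1 higher at an unadjusted p under 0.05. It was CYP2J2, an epoxygenase of arachidonic acid. It read 3410.4, 3138 and 2724 in the PGF2alpha group, against 2372, 2276 and 1851 in the vehicle group. All PGF2alpha arrays lay above all vehicle arrays, and the log2 fold change was 0.51 (adjusted p = 0.101, SE 0.156). CYP4V2, a fatty acid hydroxylase, read 700.3, 581 and 722 in the PGF2alpha group, against 744, 790.0 and 762 in the vehicle group on its first probe set, with no overlap but a narrow gap, and a log2 fold change of -0.19 (adjusted p = 0.524, SE 0.153).

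The second CYP4V2 probe set read 1070.0, 806 and 997 in the PGF2alpha group, against 949, 1094 and 986 in the vehicle group, with overlap and a log2 fold change of -0.08 (adjusted p = 0.829, SE 0.161). CYP2U1, a hydroxylase of long-chain fatty acids, had log2 fold changes of 0.19 and 0.06 on its pair of probe sets, and CYP4F12, of the same wider group, had -0.14. These did not pass either.

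Besides CYP3A5 and CYP1B1, 5 other xenobiotic genes were tested and did not pass. CYP2A23 and CYP2A24 are macaque genes of the CYP2A subfamily. CYP2A23 had log2 fold changes of 0.03 and -0.05 on its probe sets, and CYP2A24 had 0.03, so all 3 lay close to 0. CYP2B6, an enzyme of drug oxidation, had -0.27 and -0.06 on its tested probe sets. CYP2C18 had -0.64 (adjusted p = 0.552), where vehicle replicate 4 stood at 487, and CYP2F1, a lung enzyme, had -0.54 (adjusted p = 0.527). The CYP2F1 difference was -1.06 within run 1 but 0.51 within run 2.

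Of the 3 genes whose substrates are unsettled, CYP20A1 was tested. It read 601, 501 and 467 in the PGF2alpha group, against 522, 544 and 672 in the vehicle group. The groups overlapped, and the log2 fold change was -0.14 (adjusted p = 0.711, SE 0.173).

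**Figure D4:**
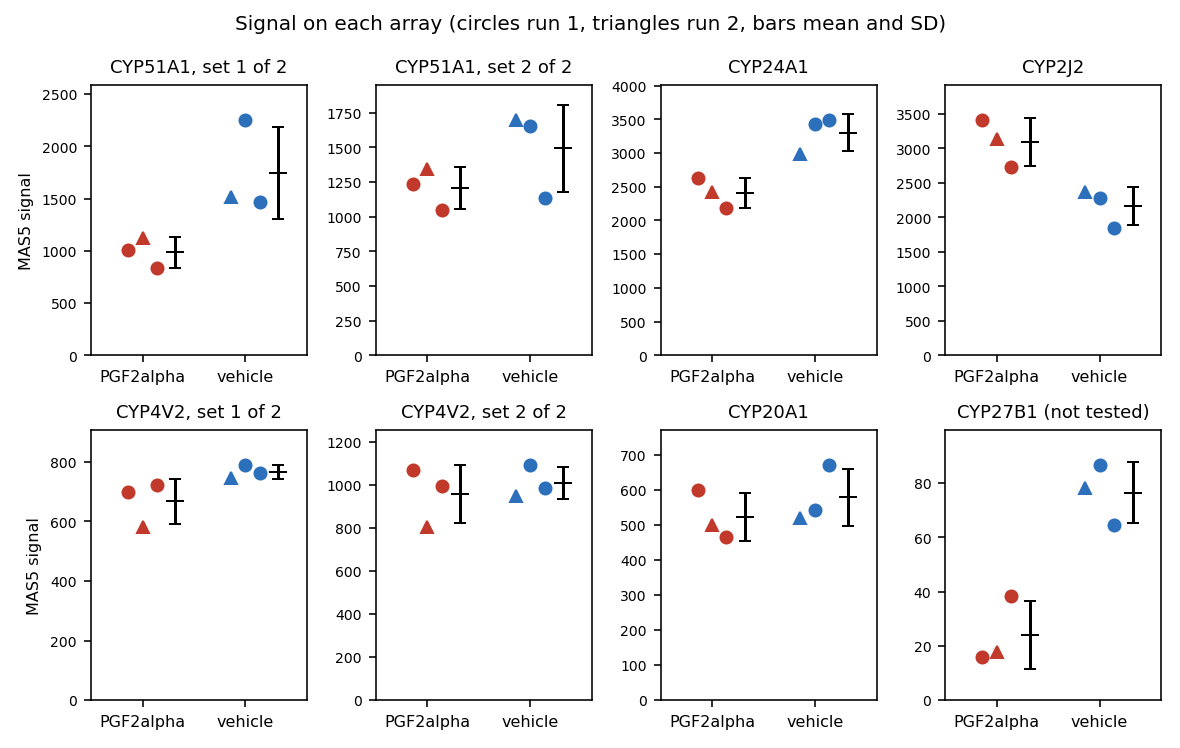
MAS5 signal (linear axis from 0) in each of the 6 arrays for CYP51A1, CYP24A1, CYP2J2, CYP4V2, CYP20A1 and CYP27B1, with PGF2alpha left of vehicle; circles are run 1, triangles run 2, and bars the mean and SD. CYP24A1 lies lower and CYP2J2 higher in every PGF2alpha array, while CYP20A1 overlaps.

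The 21 untested probe sets left 14 genes with no tested probe set. Their signals lay between 2.55 and 155, and 17 of them were below the array median on all 6 arrays. Without the filter, their log2 fold changes ran between -0.885 and 0.56 and the lowest adjusted p was 0.175, where 1.57% of 52766 probe sets were called. Groups did not overlap for 2 of them, CYP27B1 and CYP3A43. CYP3A43, a minor CYP3A enzyme, read 55.3, 35.7 and 60.6 in the PGF2alpha group, against 65.3, 75.6 and 72.3 in the vehicle group, close together and lower in the PGF2alpha group.

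The genes that supply P450s with electrons and heme, or regulate them, were taken from lists. Of 38 such genes tested, 3 fell and 1 rose, where 6.07% of all genes were called. The one that rose, VDR, was tested only through its PGF2alpha arrays, so the filter fixed its direction. Of 10 tested redox partners, 2 fell and 8 did not pass, with a median log2 fold change of -0.465, against -0.018 over all genes. CYB5A, the cytochrome b5 that boosts some microsomal P450s, read 8701, 7757 and 12274 in the PGF2alpha group, against 16912, 19707 and 15276 in the vehicle group. The PGF2alpha arrays all lay lower, and the log2 fold change was -0.87 (adjusted p = 0.0315, SE 0.184). The other tested CYB5A probe set, which can hybridise with other transcripts, was also lower without overlap. At -0.86 (adjusted p = 0.0533) it did not pass.

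PGRMC1, a heme protein that binds P450s, read 8137, 8949 and 9845 in the PGF2alpha group, against 14434, 16533 and 13792 in the vehicle group. These groups did not overlap either, and the log2 fold change was -0.73 (adjusted p = 0.019, SE 0.132). On the CYB5A and PGRMC1 probe sets with values shown, both calls held without PGF2alpha replicate 3 but ended when any other array was left out. Adjusted p then lay between 0.0713 and 0.114 for CYB5A and between 0.0528 and 0.0764 for PGRMC1. The 3 other tested PGRMC1 probe sets were also lower without overlap, at -0.78 (adjusted p = 0.0154), -0.73 (0.0275) and -0.66 (0.0552). The first of them passed in 4 of 6 fits with an array left out. The PGRMC1 probe set shown above and the one at 0.0275 can hybridise with other transcripts. FDX1, the ferredoxin that feeds CYP11B1, and POR, the P450 reductase, were chosen after their values were seen and did not pass, at -0.93 (adjusted p = 0.0694, SE 0.251) and -0.53 (adjusted p = 0.0995, SE 0.164). The other tested FDX1 probe sets had the same direction and did not pass, at -0.99 (adjusted p = 0.0776) and -0.66 (0.238). The 3 other tested POR probe sets had log2 fold changes of 0.59, 0.05 and -0.003, so POR had no single direction.

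Of 11 tested genes of heme synthesis and breakdown, BLVRB alone passed, and the median log2 fold change was 0.001. BLVRB, a biliverdin reductase, read 499, 322 and 578 in the PGF2alpha group, against 789, 934 and 1014 in the vehicle group. Its groups did not overlap, and its log2 fold change of -0.94 (adjusted p = 0.0426, SE 0.218) ended as a call without any array other than PGF2alpha replicate 3, at adjusted p between 0.0776 and 0.15. CPOX, a late enzyme of heme synthesis, had 0.84 (adjusted p = 0.072, SE 0.23). ALAS1, the rate-limiting enzyme, was chosen after its values were seen and read 864, 1046 and 1488 in the PGF2alpha group, against 1618, 4626 and 2571 in the vehicle group, with a log2 fold change of -1.25 (adjusted p = 0.074, SE 0.346).

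Of 17 tested regulators of P450 genes, VDR alone passed with 1 probe set a gene, and the median log2 fold change was 0.015. VDR, the vitamin D receptor that induces CYP24A1, read 199, 555 and 193 in the PGF2alpha group, against 81.9, 44.8 and 48.2 in the vehicle group. PGF2alpha replicate 2 stood far above the others, and the vehicle arrays all lay below the array median, so the probe set was tested only through its treated arrays. Its log2 fold change was 1.73 (adjusted p = 0.0384, SE 0.389), its other tested probe set had 1.27 (adjusted p = 0.188), and the call held without PGF2alpha replicate 3 but ended without any other array, at adjusted p between 0.0683 and 0.127. SREBF1, a regulator of lipid synthesis, had 0.90 (adjusted p = 0.0501, SE 0.219) on a probe set that can hybridise with other transcripts, and passed on its other probe set, at 0.65 (adjusted p = 0.0488).

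**Figure D5:**
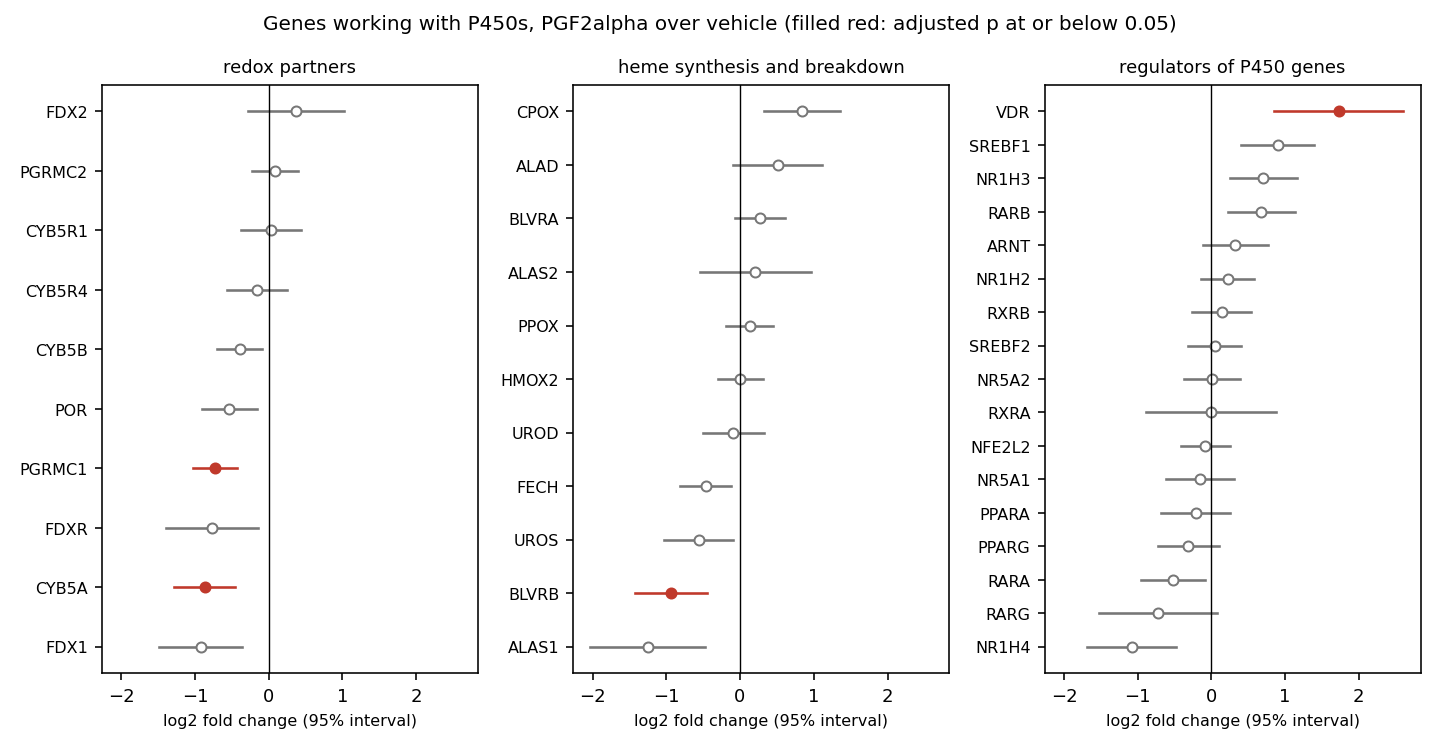
Log2 fold changes of signal + 40 (PGF2alpha minus vehicle, n = 3 arrays each) of tested redox partner, heme and regulator genes, drawn as points with 95% intervals, in filled red where adjusted p was at or below 0.05. CYB5A, PGRMC1 and BLVRB lie below 0 and VDR above it.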

How the data were processed

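Total RNA of corpus luteum was hybridised to 6 arrays, 3 in each group by the sample titles. The deposited table holds linear signal intensities that the authors made with MAS5, per the submitters' processing notes and the labels; its version is not given in the sources used here. Arrays shared a trimmed mean of 500.0, so the values were not scaled again. Detection calls were not used. Symbols came from a platform annotation that can be old: 24969 probe sets had 1 symbol, 361 several and 27535 none. The test was limma 3.58.1 under R 4.3.3 (eBayes with trend after lmFit, two-sided, no covariate) on log2(signal + 40), with Benjamini-Hochberg adjustment over 26944 probe sets. A gene was its tested probe set of highest mean log2 value. Probe-set IDs ending in _s_at, _x_at or _a_at were read as able to cross-hybridise. On simulated data with 200 of 26944 probe sets changed, 28% of the 2-fold changes and 77% of the 4-fold changes were found, and 5 of 110 calls were false. The simulated noise was normal and independent between probe sets, without a run effect. The changed share was also below the 5.01% called in the data, so these rates may not carry over to these arrays. The number of arrays limits the precision.

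Members, gene lists and marker lists were chosen with earlier results of these data known, and CYP2A23 and CYP2A24 were given their role after the annotation was seen. Values in every array were given for member genes past the threshold, for those without overlap and at least 2-fold changed, and for CYP11A1, CYP21A2, CYP51A1, CYP27A1, CYP7B1, CYP1B1, CYP26B1, CYP27B1, CYP24A1, CYP4V2, CYP20A1 and CYP2J2, of which CYP11A1 and CYP27A1 had no probe set named here and have no values. Of each partner list the members past the threshold and the 2 of smallest p were named, and of the neighbouring steps those past the threshold. The other settings were pseudocounts of 10 and 160, quantile normalization, a common median, no filter, a stricter filter (70th percentile), robust eBayes, eBayes without trend, array weights, run as a block, within each run, no cross-hybridising probe sets, another probe set per gene, and each array left out. The log2 ratios and the other CYP1B1 probe sets were added after seeing the data. Ratios of 3-prime to 5-prime control probe sets lay at 1.73 to 1.78 for actin in the PGF2alpha group and 1.49 to 2.25 in the vehicle group (exact permutation p = 1).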

Additional observations from a re-analysis of the deposited data

How the results depend on the processing

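No paired analysis was possible because the replicate numbers 1 to 3 and 4 to 6 are not shared between the groups. The count of P450 probe sets past the threshold was 6, and 3 with eBayes without trend, 1 within run 1, 7 with run as a block and 1 to 6 with an array left out. The count of P450 genes was 2, and 1 with eBayes without trend, 1 within run 1, 3 with run as a block and 1 to 2 with an array left out. The count of redox, heme and regulator genes was 4, and 1 with no filter, 8 with array weights and 0 to 6 with an array left out; limma gave 0 with eBayes without trend and 0 within run 1, where 17 and 11 genes had an unadjusted p under 0.05. Of 390 values of named P450 genes under other settings, 363 kept direction and side of the threshold, 14 lost the call, 1 gained it, 7 changed sign and 5 untested values moved. These 7 sign changes were all close to 0. CYP2A23 stood at 0.012 within run 1 and between -0.24 and 0.15 with an array left out. CYP2A24 lay between -0.086 and 0.15, and CYP4V2 between -0.16 and 0.034. Among the 5 untested values, that of CYP2F1 had the opposite sign too, farther from 0. It was 0.51 within run 2, with 1 array a group, against -0.54 over all arrays. The cause of these sign changes was not tested. Fits within run 1 and with an array left out rest on fewer arrays. Brightness limits the rest, since 21 of 49 member probe sets were too dim to test.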

Other observations

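Of 22 genes for the steps next to those of the P450s, 11 were named and 8 were tested, of which 3 rose and 1 fell, where 6.07% of all genes were called (3.76% higher and 2.31% lower), with a median log2 fold change of -0.479. CRABP2, which carries retinoic acid that CYP26 enzymes clear, read 492, 311 and 441 in the PGF2alpha group, against 78.6, 20.1 and 179 in the vehicle group. All PGF2alpha arrays lay above the vehicle arrays, of which 1 reached its array median, so CRABP2 too passed the filter only with its PGF2alpha arrays. Its log2 fold change was 1.95 (adjusted p = 0.0342, SE 0.424). That call held without vehicle replicate 6 and ended without any other array, at adjusted p between 0.0568 and 0.119. TBXAS1, the thromboxane synthase that is itself a P450 but carries another form of symbol, had 0.89 (adjusted p = 0.0354, SE 0.195), and TSPO, a mitochondrial protein linked to cholesterol import, had 0.92 (adjusted p = 0.0257, SE 0.18). STAR had -0.67 (adjusted p = 0.0497, SE 0.163). Calls ended without any array other than PGF2alpha replicate 3 for TBXAS1 (adjusted p between 0.0546 and 0.13) and STAR (0.0983 to 0.169), and for TSPO without any array other than PGF2alpha replicate 3 and vehicle replicate 4 (0.0636 to 0.102). EPHX2, the hydrolase of epoxides such as those of CYP2J2, was chosen after its values were seen and did not pass, at -1.32 (adjusted p = 0.0718, SE 0.362).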
